A study of Mus musculus with 8 samples.

Results

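The proteasome genes of the mouse testis were followed in whole-testis RNA-seq at RA11.50, the time after the retinoic acid (RA) injection that corresponds to mid-late pachytene in this model. They were taken by name: every protein-coding gene whose symbol is Psm followed by a family letter from a to g, a number and at most 1 further letter. This gave 49 genes of the 54532 in the expression table, of which 22046 are protein-coding, and 46 of the 49 passed the filter on low values. Whole testes of 4 mice of the *Sync-Spdya* fl/fl genotype were compared with those of 4 *Sync-Spdya* cKO mice, and each mouse gave 1 library. Both groups were on a C57BL/6J background and carried the floxed *Spdya* allele. Both had their spermatogenesis synchronized, by an inhibitor of RA synthesis (a WIN compound) given daily from PD2 and then RA at PD9, and both were injected with tamoxifen (RA7.5 and RA8.5 in the labels). The *Sync-Spdya* cKO mice also carried *Ddx4-CreERT2*, which is active in germ cells only, so that exon 2 of *Spdya* is removed there and the gene stays intact in somatic cells. Reads of the remaining *Spdya* exons are still counted, and the gene's total level does not check the deletion.

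The proteasome degrades proteins marked with ubiquitin. Its 20S core is built from rings of α subunits, which form the gate, and β subunits, among which PSMB5, PSMB6 and PSMB7 carry the proteolytic sites. A 19S cap of ATPases (Psmc genes) and non-ATPases (Psmd genes) recognizes, unfolds and feeds the substrate, while the activators encoded by the Psme genes can take the place of the cap. Male germ cells use a variant of their own. PSMA8 is the germ cell form of the α subunit PSMA7, and PSME4 (PA200) is the activator linked to degradation of acetylated histones in spermatogenesis. Interferon-inducible subunits (PSMB8, PSMB9, PSMB10) replace the 3 catalytic β subunits in the immunoproteasome, and PSMB11 is the thymus form.

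The members comprise 7 constitutive α genes, *Psma8*, 7 constitutive β genes, 4 inducible or tissue-restricted β genes, 6 ATPases, 11 non-ATPases, 4 activators, 1 inhibitor (*Psmf1*), 4 chaperones of 20S assembly (*Psmg1* to *Psmg4*), 3 chaperones of the 19S base (*Psmd5*, *Psmd9*, *Psmd10*) and *Psme2b*, a single-exon copy of *Psme2*. They are spread over the genome. *Psmd10* was the only X-linked member (X: 140948429 to 140956728, GRCm38), and *Psmb8* and *Psmb9* are neighbours on chromosome 17.

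Promoter windows were available for 41 of the 49 members (RefSeq, GRCm38.p6, 250 bases before to 50 after the start). The antioxidant response element core TGACNNNGC, the letters read by NFE2L1, the transcription factor that raises proteasome genes when the proteasome is inhibited, was found on either strand in 6 of 41 members (14.6%: *Psmb5*, *Psmb6*, *Psmc6*, *Psmd9*, *Psmd12* and *Psme4*) and in 15% of 16497 genes. CCAAT was found in 14 of 41 members (34.1%) and in 42.1% of genes. The interferon-stimulated response element core GAAANNGAAA was found in 5 of 41 members (12.2%: *Psmb3*, *Psmd4*, *Psmd9*, *Psme1* and *Psmg4*) and in 4.04% of genes. The 3 motifs were scored separately and may overlap. The windows of 4 genes whose levels are given below are shown from 150 bases before to 20 after the start. They hold such a match in a catalytic subunit (*Psmb5*, *Psmb6*), in the activator *Psme4* or in the inducible activator *Psme1*. Capitals mark the match, and each is printed 5′ to 3′ on the strand of its gene (*Psmb5* chr14:54617976-54618145, minus strand; *Psmb6* chr11:70525207-70525376, plus strand; *Psme4* chr11:30771625-30771794, plus strand; *Psme1* chr14:55578344-55578513, plus strand).
Psmb5: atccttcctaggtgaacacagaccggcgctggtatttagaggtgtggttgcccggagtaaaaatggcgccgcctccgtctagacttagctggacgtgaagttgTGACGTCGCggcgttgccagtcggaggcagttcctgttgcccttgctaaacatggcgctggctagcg
Psmb6: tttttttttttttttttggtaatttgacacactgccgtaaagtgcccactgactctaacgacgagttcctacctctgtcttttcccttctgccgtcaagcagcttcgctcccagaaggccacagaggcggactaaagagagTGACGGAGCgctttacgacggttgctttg
Psme4: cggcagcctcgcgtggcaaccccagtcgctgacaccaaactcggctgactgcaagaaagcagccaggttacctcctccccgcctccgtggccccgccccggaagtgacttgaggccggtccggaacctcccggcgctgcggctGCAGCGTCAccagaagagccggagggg
Psme1: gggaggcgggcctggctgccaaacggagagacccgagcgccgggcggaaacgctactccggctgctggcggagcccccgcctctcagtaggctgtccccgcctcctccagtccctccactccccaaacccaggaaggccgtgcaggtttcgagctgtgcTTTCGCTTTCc
The matches in *Psmb5* (first base 47 before the start) and *Psmb6* (9 before) read TGACNNNGC on the strand shown. The match in *Psme4* (7 before) and the GAAANNGAAA match in *Psme1* (10 after the start) lie on the opposite strand. A match is a string of letters in the window and does not show that a factor binds there.

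The libraries held 13978342 to 17867570 fragments on genes in the *Sync-Spdya* fl/fl mice and 15494873 to 19583091 in the cKO mice. Values are FPKM, the fragments per kilobase of gene, scaled to a library size that was not the count of fragments on genes. It was 13105342 against 13978342 fragments in control replicate 1 and 16387434 against 15560066 in control replicate 4. Relative to scaling by fragments, this raises the values of control replicate 1 and lowers those of control replicate 4. Control replicate 1 stood apart. Mitochondrial genes took 0.464% of its fragments, against 2.97 to 3.39% in the other controls and 2.20 to 3.74% in the cKO libraries. It had the highest value of all 8 libraries in 22 of the 46 tested members (47.8%, against 34.2% of the 12141 genes tested). It had the lowest in 10 (21.7%, against 23.6%). Results that it moved are therefore also given without it. Bulk tissue does not separate fewer cells of a type from less RNA per cell, and the sources used here do not say whether the counting used strand, so reads of overlapping genes on opposite strands could not be told apart. The pachytene markers differed widely in level, and 5 of 8 passed the filter. *Ldhc* (362 to 631 FPKM in controls) and *Piwil1* (175 to 253 FPKM) were abundant. Those that did not pass were at 1.95 FPKM or less in the controls. Among the round spermatid markers 1 of 6 passed the filter, at 1.92 to 8.99 FPKM in the controls.

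No difference between the genotypes was detected in any tested proteasome gene. None of the 46 tested members was called differentially expressed (DE: a limma p under 0.05 after Benjamini-Hochberg adjustment, and a log2 fold change beyond -1 or 1), nor had any an unadjusted p below 0.05. Log2 fold changes on the log2(FPKM + 0.1) scale ran from -0.30 (*Psma8*) to 0.33 (*Psmb2*), with a median of 0.04 against 0.01 for all genes tested. Of the 46 members, 27 (58.7%) had a positive value, compared with 52% of all genes, and none exceeded 0.5 in absolute size, compared with 5.77% of all genes. Control replicate 1 moved these values: without it *Psmb2*, a constitutive β subunit, had 0.09, the range ran from -0.14 (*Psme4*) to 0.42 (*Psmg3*), the median was 0.08 against 0.03 for all genes, and 39 of 46 members (84.8%) had a positive value against 57.2% of all genes.

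These counts stand beside a background that was low in this fit, while the paper reported more DE genes with another test (DESeq2). Over all 12141 genes, 0% were DE with a higher level in the cKO libraries, and 0.0165% (2 genes) were DE and lower. At an unadjusted p below 0.05, 5.89% of all genes were higher and 5% were lower, against 0 and 0 of the 46 members. The smallest p among the members, 0.0615 (adjusted p = 0.491), belonged to *Psma2*, an α subunit, which is named here because of that value. Without control replicate 1, 4 members (8.7%) were higher at an unadjusted p below 0.05 (*Psmb10*, *Psmd10*, *Psme2* and *Psmg3*), against 9.66% of 12137 genes, and none was lower, against 5.9%. The smallest adjusted p among the members was then 0.215 (*Psme2*, limma).

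The intervals set limits on what these libraries could have missed. The standard error (SE) of a member's log2 fold change was 0.087 to 0.266 (median 0.143). The 95% interval of limma lay within -1 and 1 for 46 of 46 members and for 93% of all genes, and within -0.5 and 0.5 for 29 of 46 members (63%) and 54.9% of all genes. The 17 members with a wider interval included *Psma8*, *Psmb2*, *Psmb5*, *Psmb7*, *Psmb10* and *Psme2*. The interval that reached farthest was that of the 20S chaperone *Psmg4* (-0.30 to 0.88). With 4 mice per group, a change that lies inside a member's interval could not be told from none.

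**Figure D1:**
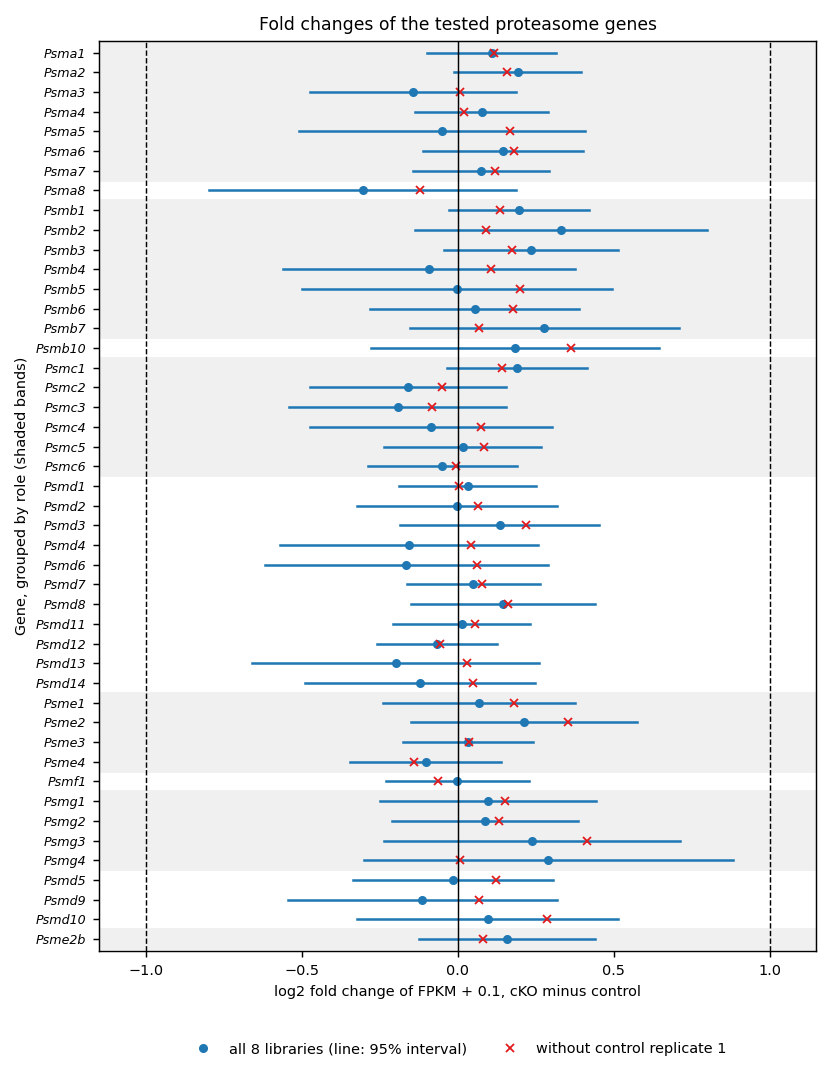
Log2 fold change (horizontal axis, FPKM + 0.1, cKO minus control) of the 46 tested proteasome genes (vertical axis, ordered by role with shaded bands), with points and 95% intervals from limma over 8 libraries and crosses for the estimate without control replicate 1. All 46 intervals lie between the dashed lines at -1 and 1 and cross 0.

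The 20S α genes encode the outer rings of the core. *Psma8* had the highest deposited mean of all members. Its FPKM was 304, 184, 203 and 165 in the controls and 232, 155, 160 and 140 in the cKO libraries. Control replicate 1 and cKO replicate 1 were the highest of their groups, and the groups overlapped. Its mean was 214 ± 61.9 against 172 ± 41.0 FPKM (SD, n = 4), which is a log2 fold change of -0.30 (SE 0.22, 95% interval -0.80 to 0.19, limma adjusted p = 0.675), which was -0.12 without control replicate 1. *Psma8* took 7.02 to 12.1% of the summed FPKM of all 49 members in a library.

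*Psma7* (ENSMUSG00000027566, chromosome 2, 180036374 to 180042433), the counterpart that *Psma8* replaces, had 41.3, 37.9, 36.6 and 35.2 FPKM in the controls and 36.8, 38.5, 40.4 and 43.4 FPKM in the cKO libraries. Both ranges were narrow and overlapped, with a log2 fold change of 0.08 (SE 0.10, limma adjusted p = 0.831). The ratio of *Psma8* to *Psma7* within a library was 7.35, 4.85, 5.54 and 4.69 in the controls and 6.29, 4.01, 3.97 and 3.22 in the cKO libraries. The ratio was below every control in 3 of the 4 cKO libraries and inside the control range in cKO replicate 1. The groups' mean log2 ratios were 2.46 ± 0.30 and 2.08 ± 0.41 (SD, n = 4 each), a difference of -0.38, or -0.24 without control replicate 1.

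Some pachytene markers were lower beside *Psma8*. Of the 8 markers, 5 passed the filter, all 5 had a negative log2 fold change (median -0.30, or -0.29 without control replicate 1, when 4 of the 5 were negative), and 2 were lower at an unadjusted p below 0.05, against 5% of all genes. These were *Ldhc*, the germ cell lactate dehydrogenase (log2 fold change -0.73, limma adjusted p = 0.287), and *Piwil1*, a piRNA-binding protein (-0.40, limma adjusted p = 0.442), and both kept an unadjusted p below 0.05 without control replicate 1. Among the 3 untested markers, the histone gene *Hist1h1t*, named here because it ran the other way, was at 0.279 ± 0.0531 FPKM in the controls and 0.667 ± 0.242 FPKM in the cKO libraries (SD, n = 4 each). The markers summed to 916 to 1449 FPKM in the controls and 724 to 1119 FPKM in the cKO libraries. None of the 8 was at 0 in group mean, and the part of germ cell content in the *Psma8* values was not tested.

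The other α genes ranged from 22.7 FPKM (*Psma2*) to 88.0 FPKM (*Psma6*) in mean. Their log2 fold changes lay between -0.14 and 0.19 (median 0.08), with 5 of 7 above 0. All 7 were above 0 without control replicate 1, from 0.007 (*Psma3*) to 0.18 (*Psma6*), with a median of 0.12. Their summed FPKM was 352, 304, 293 and 281 in the controls and 345, 300, 317 and 315 in the cKO libraries. The sums overlapped, and replicate 1 was the highest in each group.

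The level of *Psma8* relative to *Psma7* depended on the gene length behind FPKM. The table divides by a length that was 1 to 3.36 times (median 1.64) the length of the principal transcript of a member in GENCODE M21, and *Psma7* had the ratio of 3.36 (3071 against 914 bases). As deposited, mean *Psma8* was 4.97-fold above *Psma7*. Per principal transcript length, an alternative chosen after the data were seen, it was 1.48-fold above. *Psma8* was then second among the members at 193 FPKM, below *Psmd2*, a scaffold subunit of the 19S base, at 212 FPKM. *Psma7* moved from the fifth place to the second among the α genes. Fold changes between the groups divide by the same length on both sides and are not touched by this.

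**Figure D2:**
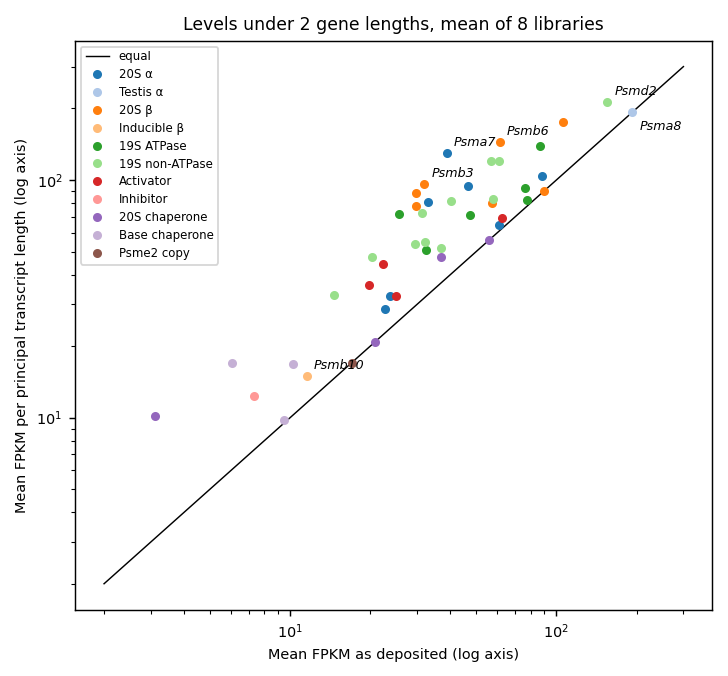
Mean FPKM over 8 libraries as deposited (horizontal log axis) against the same fragments per principal transcript length (vertical log axis) for the members above 1 FPKM, 1 point per gene coloured by role, with the line of equality. Psma8 lies on the line at 193 FPKM, while Psma7 rises from 38.8 to 130 FPKM.

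The constitutive β genes include the 3 that carry the catalytic sites. *Psmb5*, the chymotrypsin-like subunit whose promoter is printed above, had 134, 93.6, 81.6 and 57.8 FPKM in the controls and 101, 79.1, 88.9 and 82.7 FPKM in the cKO libraries. The controls spanned the whole cKO range, from control replicate 1 at the top to control replicate 4 at the bottom. The log2 fold change was -0.00 (SE 0.22, limma adjusted p = 0.997), and 0.20 without control replicate 1.

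*Psmb6* (ENSMUSG00000018286), the caspase-like subunit, had 76.8, 59.9, 58.7 and 46.7 FPKM in the controls and 69.3, 56.8, 62.8 and 59.4 FPKM in the cKO libraries (log2 fold change 0.05, SE 0.15, limma adjusted p = 0.927). *Psmb7* (ENSMUSG00000026750), the trypsin-like subunit, had 17.1, 33.5, 32.1 and 26.7 FPKM in the controls and 33.8, 30.4, 34.8 and 29.7 FPKM in the cKO libraries (log2 fold change 0.28, SE 0.19, limma adjusted p = 0.657). Control replicate 1 was the highest library for *Psmb6* and the lowest for *Psmb7*, and without it the log2 fold change of *Psmb7* was 0.07. Over all 7 constitutive β genes, means ran from 29.7 FPKM (*Psmb1*) to 106 FPKM (*Psmb4*), and log2 fold changes from -0.09 to 0.33 (median 0.20), with 5 of 7 above 0. All 7 were above 0 without control replicate 1, when the median was 0.14. Their summed FPKM was 319 to 470 in the controls and 380 to 449 in the cKO libraries.

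The immunoproteasome subunits were far below their constitutive counterparts, with the exception of *Psmb10*. *Psmb8* (ENSMUSG00000024338, chromosome 17, 34197721 to 34201454) had 0.502, 1.27, 0.351 and 0.245 FPKM in the controls and 0.980, 0.458, 0.672 and 0.624 FPKM in the cKO libraries. These values rest on 11 to 63 fragments per library. *Psmb9* (ENSMUSG00000096727, chromosome 17, 34181988 to 34187764) had 0.855, 1.07, 0.472 and 0.450 FPKM in the controls and 1.03, 0.770, 0.713 and 0.628 FPKM in the cKO libraries, on 27 to 73 fragments. Neither passed the filter of a mean above 1 FPKM in both groups. With the filter lowered to 0.1 FPKM, the log2 fold changes were 0.35 (SE 0.40, limma adjusted p = 0.799) for *Psmb8* and 0.18 (SE 0.28, limma adjusted p = 0.855) for *Psmb9*. The ratio of *Psmb8* to *Psmb5* was 0.00375 to 0.0136 in the controls and 0.00578 to 0.00974 in the cKO libraries. That of *Psmb9* to *Psmb6* was 0.00804 to 0.0179 and 0.0106 to 0.0149, so in both pairs the controls spanned the other group.

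*Psmb10* (ENSMUSG00000031897, chromosome 8, 105935735 to 105938444), the inducible form of *Psmb7*, was expressed at 15.4, 12.4, 7.99 and 8.09 FPKM in the controls and 12.6, 10.6, 11.4 and 13.7 FPKM in the cKO libraries. The controls split into a higher and a lower pair, and their range enclosed all 4 cKO values. Its log2 fold change was 0.18 (SE 0.21, 95% interval -0.28 to 0.65, limma adjusted p = 0.804) and 0.36 without control replicate 1. The ratio of *Psmb10* to *Psmb7* was 0.901 in control replicate 1, where *Psmb7* was at its lowest, 0.249 to 0.371 in the other controls and 0.327 to 0.461 in the cKO libraries. *Psmb11* (ENSMUSG00000072423), the thymus subunit, had the lowest mean of all members and 1 to 5 fragments in a library. It was at 0.0127 to 0.0230 FPKM in the controls and 0.0108 to 0.0615 FPKM in the cKO libraries, levels at which no difference can be read.

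**Figure D3:**
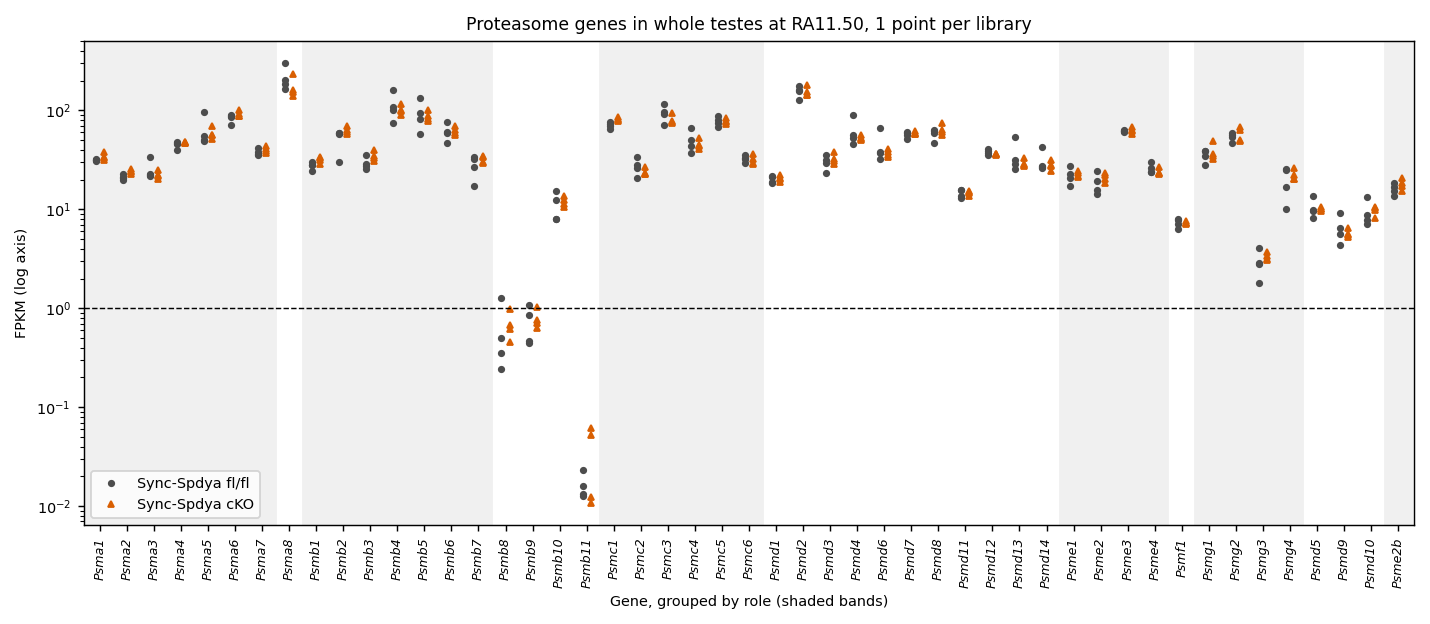
FPKM (vertical log axis) of all 49 proteasome genes (horizontal axis, ordered by role with shaded bands) in the 4 Sync-Spdya fl/fl (circles) and 4 Sync-Spdya cKO (triangles) libraries, 1 symbol per library, with a dashed line at 1 FPKM. Psma8 and Psmd2 lie at the top, Psmb8 and Psmb9 around the line and Psmb11 far below it, and the groups lie over each other in every gene but Psmc1.

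The ATPases of the 19S base held the single member whose groups did not overlap. *Psmc1* (RPT2; ENSMUSG00000021178, chromosome 12, 100110154 to 100123405) had 64.2, 77.1, 73.3 and 70.4 FPKM in the controls and 85.5, 79.9, 81.6 and 77.7 FPKM in the cKO libraries. All 4 cKO values were above all 4 controls, although the nearest values, 77.7 and 77.1 FPKM, almost touched. Its log2 fold change was 0.19 (SE 0.10, 95% interval -0.03 to 0.41, limma adjusted p = 0.55), and 0.14 without control replicate 1. This was 1 of 46 members (2.17%), where 3.64% of all genes lay wholly above, and 0 of 46 lay wholly below, where 2.59% of all genes did. The other 5 ATPases had log2 fold changes from -0.19 to 0.02, and the class had a median of -0.07, or 0.03 without control replicate 1.

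The 11 non-ATPases of the cap, among them the ubiquitin receptor *Psmd4* and the deubiquitinase *Psmd14*, had means from 14.6 FPKM (*Psmd11*) to 155 FPKM (*Psmd2*). Their log2 fold changes lay between -0.20 and 0.14 with a median of -0.00, 5 above 0 and 6 below. The median was 0.06 without control replicate 1, and 10 of the 11 were above 0, with *Psmd12* below. Their summed FPKM was 659, 538, 518 and 458 in the controls and 589, 494, 522 and 511 in the cKO libraries. On these sums the controls again enclosed the other group.

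Among the activators, *Psme4* (ENSMUSG00000040850, chromosome 11, 30771726 to 30880361) had 24.0, 23.8, 30.1 and 26.0 FPKM in the controls and 27.0, 22.9, 23.6 and 23.1 FPKM in the cKO libraries. In the cKO group, 3 values were below all controls and cKO replicate 1 was above 3 of them. The log2 fold change was -0.10 (SE 0.11, 95% interval -0.34 to 0.14, limma adjusted p = 0.789) and -0.14 without control replicate 1. *Psme3* (ENSMUSG00000078652), the nuclear activator PA28γ, was the most abundant of the 4 as deposited, at 62.1, 60.1, 63.0 and 61.5 FPKM in the controls and 67.9, 62.6, 64.0 and 58.3 FPKM in the cKO libraries. It was also among the steadiest, with a log2 fold change of 0.03 (SE 0.09, limma adjusted p = 0.927).

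*Psme1* and *Psme2* encode the interferon-inducible activator PA28αβ and lie close together on chromosome 14. *Psme1* (ENSMUSG00000022216) had 27.3, 22.6, 17.2 and 20.6 FPKM in the controls and 21.9, 21.1, 23.3 and 24.6 FPKM in the cKO libraries (log2 fold change 0.07, SE 0.14, limma adjusted p = 0.894). *Psme2* (ENSMUSG00000079197) had 24.4, 19.5, 15.7 and 14.5 FPKM in the controls and 20.3, 22.1, 18.6 and 23.3 FPKM in the cKO libraries (0.21, SE 0.16, limma adjusted p = 0.702). For both genes the top value was control replicate 1, and the cKO values lay inside the control range. Without that library the log2 fold change of *Psme2* was 0.35. *Psme2b*, whose reads could be shared with *Psme2*, was at 13.7 to 18.6 FPKM in the controls and 15.4 to 20.7 FPKM in the cKO libraries. The ratio of *Psme4* to *Psme3* was 0.387 to 0.478 in the controls and 0.365 to 0.398 in the cKO libraries, and those of *Psme1* and *Psme2* to *Psme3* overlapped as well.

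**Figure D4:**
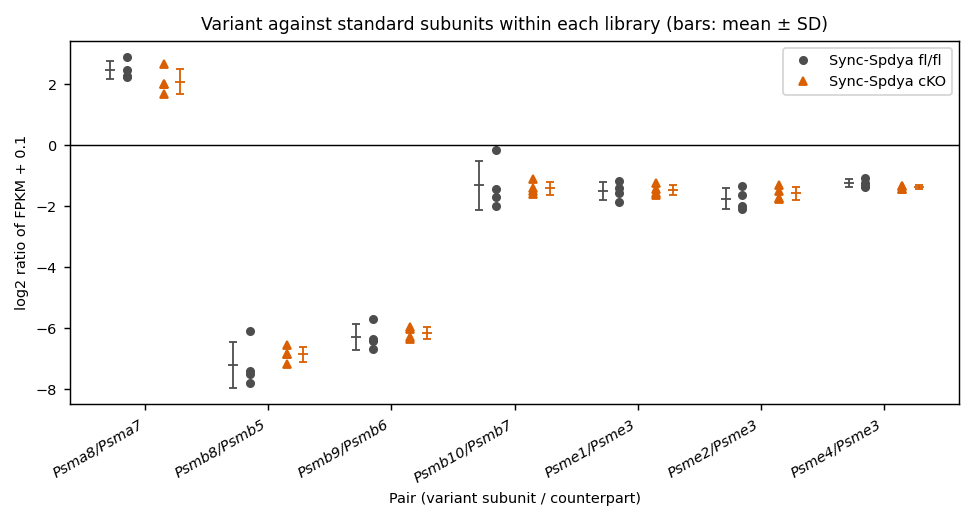
Log2 ratio of FPKM + 0.1 between a variant and its counterpart (vertical axis) for 7 pairs (horizontal axis), with 1 symbol per library, circles for Sync-Spdya fl/fl and triangles for Sync-Spdya cKO, and bars for mean ± SD beside them. With the deposited gene lengths, the log2 ratio of Psma8 to Psma7 is above 0 in all 8 libraries and the other 6 pairs are below 0. The groups overlap in each pair.

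The assembly factors differed widely in level. The 20S chaperones ranged from 3.10 FPKM (*Psmg3*) to 55.6 FPKM (*Psmg2*) in mean. All 4 had a positive log2 fold change, from 0.09 to 0.29 (median 0.17, or 0.14 without control replicate 1), and none passed the test (smallest limma adjusted p = 0.747). The base chaperones lay between 6.06 and 10.2 FPKM with log2 fold changes of -0.11 to 0.10 (median -0.02). The 3 values without control replicate 1 were 0.07 (*Psmd9*), 0.12 (*Psmd5*) and 0.29 (*Psmd10*, 1 of the 4 members named above). *Psmd10*, the X-linked one, was at 9.31 ± 2.86 FPKM (SD, n = 4) in the controls and 9.69 ± 1.08 FPKM (SD, n = 4) in the cKO libraries. *Psmf1* was at 7.33 ± 0.738 and 7.30 ± 0.269 FPKM (SD, n = 4 each), and its log2 fold change was -0.00.

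Differences among mice of 1 group were large beside those between the groups. The summed FPKM of all 49 was 2514, 2111, 2048 and 1794 in the controls and 2337, 1947, 2083 and 1992 in the cKO libraries. The controls thus held both the highest and the lowest sum. The same held for the members' share of a library's fragments, 0.490 to 0.590% in the controls and 0.511 to 0.586% in the cKO libraries. It did not hold for their share of a library's total FPKM. That share was 0.669 to 0.700% in the controls and 0.683 to 0.789% in the cKO libraries, with cKO replicate 1 the highest. Control replicate 4 had the lowest value of all libraries in 23 of 46 members (50%, against 23.8% of all genes). cKO replicate 1 was above a gene's mean over the 8 libraries in 42 of 46 members (91.3%, against 57.4% of all genes). It was the lowest library for none, against 6.94% of all genes.

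The spread within a group was wider in the controls. The median coefficient of variation of the members was 18.1% in the controls, 10.6% in the controls without replicate 1 and 8.46% in the cKO libraries. Over all genes tested these were 17.2%, 12.2% and 9.43%. The smallest spreads belonged to *Psma1* in the controls (1.68%) and to *Psmd12* in the cKO libraries (1.05%). The largest in the cKO group was that of *Psma8* (23.9%).

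**Figure D5:**
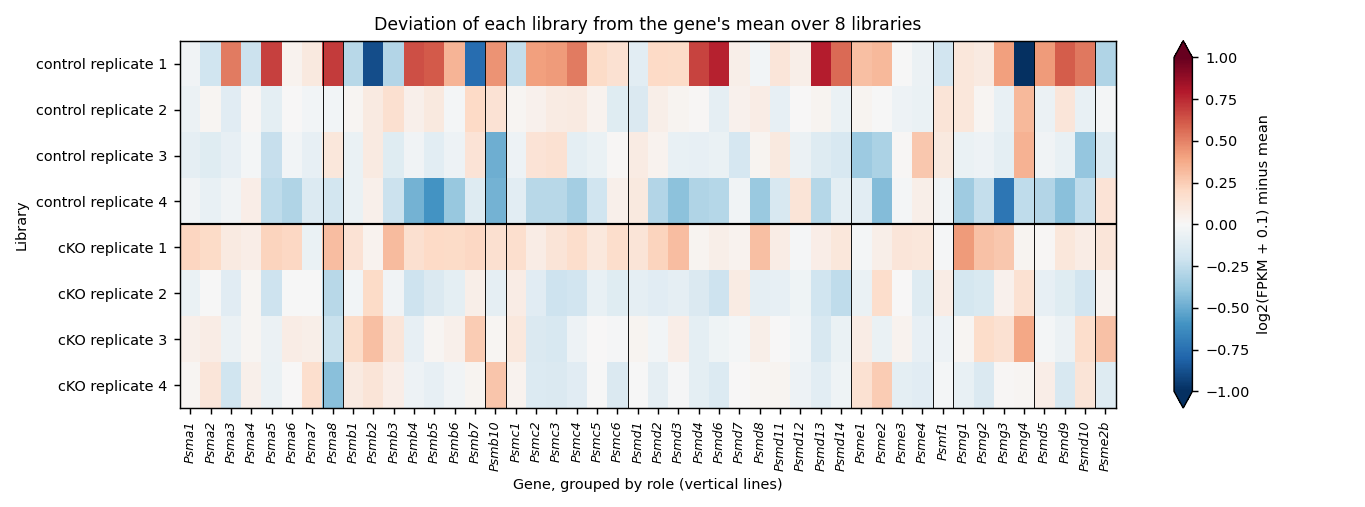
Deviation of log2(FPKM + 0.1) from the gene's mean over 8 libraries (colour, red above and blue below) for the 46 tested members (horizontal axis, grouped by role with vertical lines) in each library (vertical axis, controls above the black line). Control replicate 1 holds the deepest colours in both directions, control replicate 4 is mostly blue, and cKO replicate 1 is above the mean in 42 of 46 members.

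Genes that work with the proteasome showed few differences as well. Of 27 associated and regulatory genes, 26 were in the table and all 26 were tested. At an unadjusted p below 0.05, 1 was higher (3.85%, against 5.89% of all genes) and 1 was lower (3.85%, against 5%), with a median log2 fold change of -0.01. Neither had an unadjusted p below 0.05 without control replicate 1, when their log2 fold changes were -0.24 (*Uchl5*) and 0.18 (*Ubqln2*). *Uchl5*, a deubiquitinase of the 19S cap, was at 19.2, 14.7, 15.6 and 14.9 FPKM in the controls and 15.6, 12.3, 11.9 and 11.5 FPKM in the cKO libraries (log2 fold change -0.32, SE 0.13, limma adjusted p = 0.413). *Ubqln2*, an X-linked shuttle factor that carries ubiquitinated proteins to the proteasome, was at 20.8, 30.6, 27.2 and 28.8 FPKM in the controls and 29.6, 32.6, 34.8 and 34.3 FPKM in the cKO libraries (log2 fold change 0.30, SE 0.13, limma adjusted p = 0.449). In both genes cKO replicate 1 fell within the control range. The 7 tested genes for ubiquitin and its activating enzymes had a median log2 fold change of 0.04, with none at an unadjusted p below 0.05.

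Genes of interferon-induced antigen presentation, which are regulated with the immunoproteasome in many tissues, had a median log2 fold change of 0.22 over 11 tested genes of 13, with 10 above 0 and none at an unadjusted p below 0.05. Without control replicate 1, 10 genes passed the filter and all 10 were above 0 (median 0.24), against 57.2% of all genes. In that fit 1 was higher at an unadjusted p below 0.05, against 9.66% of all genes. The 13 genes summed to 186 to 291 FPKM in the controls and 246 to 263 FPKM in the cKO libraries. Markers of somatic cells that could carry the inducible subunits were counted as well, against 5.89% of all genes higher at an unadjusted p below 0.05. The 6 macrophage markers summed to 13.9 to 21.4 FPKM in the controls and 23.3 to 26.4 FPKM in the cKO libraries. All 6 had a positive log2 fold change (median 0.45), and 3 were higher at an unadjusted p below 0.05 (*Csf1r*, *C1qa* and *Mrc1*, limma adjusted p from 0.286 to 0.447). The 5 endothelial markers summed to 7.01 to 13.3 FPKM in the controls and 12.7 to 16.3 FPKM in the cKO libraries, with 2 higher at an unadjusted p below 0.05 (*Pecam1* and *Cdh5*). Without control replicate 1, *Mrc1* (log2 fold change 0.20) and *Pecam1* (0.44) no longer had an unadjusted p below 0.05. This left 2 of 6 macrophage markers and, with another marker added, 2 of 5 endothelial markers, against 9.66% of all genes higher. Lymphocyte markers summed to at most 0.900 FPKM, 3 of 6 had a mean below 0.1 FPKM, and none was tested. The part of these cells in the values of *Psmb8*, *Psmb9*, *Psmb10*, *Psme1* and *Psme2* was not tested.

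The remaining marker lists complete the description of the tissue. The 6 Sertoli markers had a median log2 fold change of 0.15 with none at an unadjusted p below 0.05. Their median was 0.35 without control replicate 1, and 3 of 6 were higher at an unadjusted p below 0.05, against 9.66% of all genes: *Amh* (0.44), *Clu* (0.43) and *Cldn11* (0.26). Of the 6 spermatogonial markers, 5 had a positive log2 fold change (list median 0.12). At an unadjusted p below 0.05, 1 was lower, against 5% of all genes (*Stra8*, log2 fold change -1.46, limma adjusted p = 0.280). Without control replicate 1, 4 of 6 were positive. *Stra8* was then at -1.67 and *Uchl1* at 0.39, both with an unadjusted p below 0.05, against 5.9% of all genes lower and 9.66% higher. *Hsd3b1* of Leydig cells (log2 fold change 1.02, limma adjusted p = 0.390) and *Acta2* of peritubular myoid cells (0.57, limma adjusted p = 0.287) were each higher at an unadjusted p below 0.05. Each was 1 of 2 tested markers of its list, against 5.89% of all genes. Without control replicate 1 *Acta2* kept this at 0.57, and *Hsd3b1*, at 0.78, did not. *Spaca1*, the only tested round spermatid marker, was at 0.30 (limma adjusted p = 0.825). It was at 0.71 without control replicate 1, with an unadjusted p below 0.05. In all 8 libraries no marker had an adjusted p below 0.05.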

How the data were processed

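RNA of whole testes was sequenced from 4 mice of the control (*Sync-Spdya* fl/fl) and 4 of the *Sync-Spdya* cKO genotype. The authors deposited FPKM values, made by a sequencing company's software from paired-end reads, for 54532 genes beside each gene's length, and again in 1 file per library with the same values in 54532 rows. The aligner, counting tool and use of strand are not given in the sources used here. The build was GRCm38 (mm10), per the submitters' processing notes. FPKM times length gave whole fragments for 100% of values within 0.02, at 13978342 to 19583091 fragments per library. A single fragment is thus a small step for every tested member. It is a larger one for the untested *Psmb9* (27 to 73 fragments), *Psmb8* (11 to 63) and *Psmb11* (1 to 5).

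The members, gene lists and tests were chosen with earlier results of these data known. limma 3.58.1 (R 4.3.3; lmFit, eBayes with a mean trend) was run on log2(FPKM + 0.1) over the 12141 protein-coding genes whose group means both exceeded 1 FPKM, without covariates, with Benjamini-Hochberg adjustment over all of them. Fold changes on this scale understate those of low genes. Named members were *Psma8*, *Psme4*, the inducible and counterpart subunits, the extremes in level and any member with an unadjusted p below 0.05 or separate groups. Other members are described by role, and list genes outside the family are named at an unadjusted p below 0.05. The procedure was tested on simulated fragments, with changes larger than any seen in the members and no library standing apart. That test does not show how well changes of the members' size are found. The most alike replicates still had a chi-square of 4.61 per gene, above sampling noise, and none were merged. The labels do not tie a replicate number to a litter, so numbers were not taken to pair mice. Alternatives were other pseudocounts, filters, centring, TPM, voom on recovered fragments, array weights, no trend, a replicate block and each library left out. Labels and paper differ on the tamoxifen days (RA7.5 and RA8.5 in the labels) and on the RNA kit.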

Additional observations from a re-analysis of the deposited data

Results flagged for a closer look

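In 8 of the 98 sets of 4 libraries (49 members in each group) 1 library lay apart from the other 3 by Dixon's criterion, where chance gives about 4.9. Over all genes tested this was so in 8.01% of control sets and 6.74% of cKO sets. Control replicate 1 was that library for 5 members. *Psma5* was at 95.8 FPKM there and at 49.7 to 55.5 in its group otherwise, *Psmd6* at 67.0 against 32.3 to 37.6, *Psmd14* at 43.0 against 26.0 to 27.7 and *Psma3* at 33.6 against 21.7 to 22.8. *Psmb2* went the other way, at 30.2 FPKM against 57.8 to 59.6.

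cKO replicate 1 was that library for 3 members, each time above its group. *Psmc3* was at 93.8 FPKM and between 74.5 and 77.7 in the rest of the group, *Psmc2* at 26.7 against 22.9 to 23.4, and *Psme4* at 27.0 against 22.9 to 23.6. None of the 16 sets of within-library ratios between paired subunits had such a library.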

How the results depend on the processing

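No member was called DE in any of the 19 alternative fits. The count over all genes tested, 2, became 4 with all biotypes, 57 with array weights, 1 with median centring, 1 with TPM, 0 with no FPKM filter and 0 to 3 when a library was left out. Members at an unadjusted p below 0.05, 0 in the comparison as reported, were 1 with no FPKM filter (*Psma2*, against 10% of all genes). They were 2 with TPM (*Psma6* and *Psme2*, against 10.4%) and 1 with voom on recovered fragments (*Psmc1*, against 11%). When a library was left out they were 0 to 4, against 5.65 to 15.6% of all genes in either direction. Without control replicate 1, 4 were higher (all genes 15.6%). Without control replicate 2, 2 were higher (*Psma2* and *Psmb3*, all genes 11%). Without control replicate 4, 2 were lower (*Psmc2* and *Psmc3*, all genes 15%). Members without overlap, 1 as reported (all genes 6.24%), were 3 with median centring (all genes 6.3%), 2 with TPM (6.14%) and 3 with voom (6.31%). When a library was left out they were 1 to 4, against 7.1 to 15.4% of all genes. The replicate block gave 0 DE genes and 1 member at an unadjusted p below 0.05, against 14.6% of all genes. This member was *Psma8* (lower, unadjusted p = 0.0277, adjusted p = 0.282 in limma), with the cKO library below the same-numbered control in 4 of 4 numbers. Whether the numbers pair the mice is not settled: departures from the group means correlated at 0.0757 to 0.406 between libraries of 1 number, below 0.1 for 1 of the 4 numbers, and 5 of the 8 libraries correlated best with their own number. The causes were not tested.

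Log2 fold changes near 0 changed sign. That of *Psmb5* was 0.0154 with array weights, 0.0137 with median centring, 0.0752 with TPM, 0.0299 with voom and -0.20 to 0.20 when a library was left out. The leave-one-out ranges were -0.0629 to 0.18 for *Psmb6*, -0.0412 to 0.18 for *Psme1* and -0.0024 to 0.0715 for *Psme3*. The other values of named members, 198 in all, kept their direction. TPM moved the median log2 fold change of all genes to 0.09 and that of the members to 0.12. The 4.97-fold level of *Psma8* over *Psma7* became 1.48-fold per principal transcript length, a setting added after the data were seen.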
